A study of Acipenser sturio with 24 samples.

Results

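The comparison set the 2 earliest libraries of a sturgeon embryo series, NF stages 0 and 4, called cleavage here, against the next 2, NF stages 8 and 9, called blastula here. These are 4 of the 24 libraries. NF is the Nieuwkoop-Faber staging table of the frog Xenopus. The library labelled stage 0 is counted on the cleavage side, although its label does not say that cleavage had begun. Each stage is 1 library of whole-embryo RNA from Bester hybrids, a cross of beluga (Huso huso) and sterlet (Acipenser ruthenus), while the organism field names Acipenser sturio. All embryos were raised in the same dilute salt solution (0.1 X MMR), and all libraries were depleted of ribosomal RNA. The number of embryos or clutches behind each library is not given in the labels. The stages are not replicates of each other, so any spread within a side includes development.

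An egg is loaded with maternal RNA made before fertilization, and early cleavage divisions run largely on that store. In the frog and the zebrafish, broad transcription from the embryo's own genome starts around the mid-blastula stage, and many maternal RNAs are degraded around that time. The comparison therefore asks how the RNA of the embryo changed before gastrulation. Because ribosomal RNA was depleted, RNA is measured with or without a poly(A) tail.

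The measured units are assembled components, sets of transcript sequences grouped by an assembly, and their values are abundances that were normalized before deposit. A component was kept when its value was 1 or more in at least 2 of the 4 columns, which held for 16225 of 275906 components (5.88%). The kept components carried 97.3% to 98.0% of the summed value of each library. Component identifiers come without gene names, so no gene, pathway or cell type is named. All values are relative within a library, so a loss of RNA shared by every component cannot be seen in them. In whole embryos, fewer cells of a type and less RNA per cell cannot be told apart.

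Both cleavage libraries stood apart from their neighbours, each in its own way. The summed values of the 4 libraries were similar, from 401382 at stage 0 to 442059 at stage 8. The numbers of components above 0 were 29906, 55224, 36790 and 37697 at stages 0, 4, 8 and 9, the highest being that of stage 4. Among the 7 libraries of stages 0 to 11, 15672 components were above 0 at stage 4 alone, against 1819 to 3208 for each of the other 6. Those 15672 held 0.723% of the summed value of stage 4. The limma calls and the counts by size are given with and without each of these libraries. Some other results are given with both only, among them those by level and for the most abundant components.

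Most of the kept components were present throughout, in a set whose filter already asked for a value of 1 or more in 2 of the 4 libraries. A value of 1 or more in all 4 libraries was held by 11654 components, 71.8% of those kept, and these carried 95.6% to 96.6% of the summed value of each library. Of the 11654, 9538 (81.8%) varied by less than 2-fold over the 4 libraries. Over stages 4, 8 and 9 alone, 11254 (96.6%) did. These folds, like all that follow, are on the scale of log2(scaled value + 1), which understates the change of low components. Over all kept components the median scaled level was 3.34, 3.21, 3.13 and 3.12 at stages 0, 4, 8 and 9.

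The remaining components were below 1 in at least 1 of the 4 libraries, and stage 0 was the library most often missing alone. The 1197 components at 1 or more at stages 4, 8 and 9 but not at stage 0 had median scaled levels of 0.523, 1.52, 1.63 and 1.53 in stage order. The sets below 1 in a single other library held 425 components for stage 4, 305 for stage 8 and 296 for stage 9. Components at 1 or more only in the blastula libraries numbered 690, and those at 1 or more only in the cleavage libraries 257. Both sets passed the filter through the side where they are high, so their difference is set by the choice. They lay close to the limit, with medians of 1.17 and 1.11 at stages 8 and 9 for the 690, and of 1.34 and 1.13 at stages 0 and 4 for the 257.

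No component was called different between cleavage and blastula. limma, a linear model with variances shared across components, called 0 of 16225 (percentage called 0, adjusted p threshold 0.05, two-sided), and the smallest adjusted p was 0.773. An unadjusted p under 0.05 was held by 830 components (5.12%), close to the share that this threshold lets through without any change. With 2 libraries a side, an exact two-sided permutation test of a single component cannot go below p = 0.333. A change common to both libraries of a side could thus have gone uncalled. The median log2 difference of blastula from cleavage over all kept components was -0.05, with -0.06 to -0.02 over the 4 pairs of a cleavage and a blastula library.

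The sides did not overlap for 3681 components that were lower at blastula (22.7%) and 2828 that were higher (17.4%), mostly by small amounts. With 2 libraries a side many components separate without any change, so these shares are not read as change. At least 2-fold between the side means and without overlap, 171 were lower (1.05%) and 190 higher (1.17%). At least 4-fold, 7 were lower (0.0431%) and 6 higher (0.037%). The balance depends on the scaling, on the filter and on stage 0. Of the 2-fold components 47.4% were lower, against 29.8% (150 lower, 353 higher) with values as deposited and 65.5% without stage 0. With the other scalings the lower share was 40.4% to 44.7%. With other filters it was 57.0% at 1 or more in all 4 columns and 39.5% at 5 or more in at least 2 columns. Of the 171, 46 had passed the filter only through the cleavage side and 85 were at 1 or more in all 4 libraries. Of the 190, 61 had passed it only through the blastula side and 64 were at 1 or more in all 4.

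Stage 0 lay farther from the blastula libraries than stage 4 did in 149 of the 171 lower components and in 171 of the 190 higher ones. The 171 had median scaled levels of 5.66, 2.73, 1.16 and 1.31 at stages 0, 4, 8 and 9. For the 190 the medians were 0.357, 1.49, 3.12 and 3.30. Stage 4 was intermediate in both sets. The rule asks that both cleavage libraries lie on the same side of the blastula ones, so it makes 1 of them intermediate. It does not set which. The 171 took 2.06%, 0.339%, 0.151% and 0.157% of the summed value in stage order, and the 190 took 1.75%, 4.47%, 9.31% and 6.03%. These shares lean on few components and do not describe the typical member. The 7 that were at least 4-fold lower held 1.52% at stage 0. Of the 190, 4 had a mean scaled level of 1000 or more. Their deposited values were 519 to 2680 at stage 0 and 4324 to 12671 at stage 8.

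The same division by stage 0 appeared when libraries were compared in pairs. Stage 4 was at least 2-fold below stage 0 in 932 components (5.74%) and above it in 1338 (8.25%). Stage 8 was below stage 0 in 1095 (6.75%) and above it in 1264 (7.79%), and stage 9 was below it in 1037 (6.39%) and above it in 1150 (7.09%). All 3 pairs with stage 0 were thus of like size, although the first joins libraries of the same side.

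The pairs without stage 0 held fewer differences. Stage 8 was at least 2-fold below stage 4 in 372 components (2.29%) and above it in 235 (1.45%). Stage 9 was below stage 4 in 327 (2.02%) and above it in 175 (1.08%). Between the blastula libraries, stage 9 was below stage 8 in 243 (1.5%) and above it in 231 (1.42%). At least 4-fold, stage 8 was below stage 4 in 30 of the 16225 kept components and above it in 3. Stage 9 was below stage 4 in 24 and above it in 3, and below stage 8 in 4 and above it in 2. Among the 1925 components with a mean scaled level of 20 or more, 23 differed at least 2-fold between stages 4 and 8, 15 between stages 4 and 9, and 3 between stages 8 and 9. Stage 4 thus differed from blastula more often than the blastula libraries differed from each other, by a wider margin at 4-fold and at high levels than at 2-fold over all components. Pearson's r across components, on the log2 scale, was 0.893 between stages 0 and 4, 0.955 between stages 4 and 8, and 0.963 between stages 8 and 9.

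**Figure D1:**
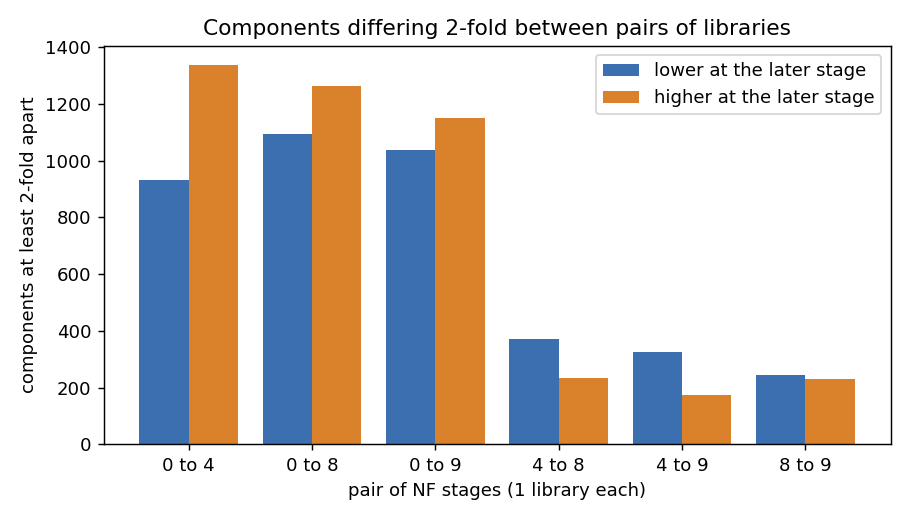
Number of kept components (vertical axis) at least 2-fold lower (blue) or higher (orange) at the later stage of each of the 6 pairs of NF stages (horizontal axis), 1 library a stage. The 3 pairs with stage 0 hold 2187 to 2359 such components, and the other 3 hold 474 to 607.

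A single library standing at least 2-fold beyond each of the other 3 was most often stage 0. It was below them in 544 of the 16225 kept components and above them in 442. Stage 4 was below the other 3 in 20 and above them in 82. For stages 8 and 9 these numbers were 30 and 11, and 27 and 11.

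The distance of stage 0 was not limited to low components. Among the 1925 components with a mean scaled level of 20 or more, 216 differed at least 2-fold between stages 0 and 4, and 3 between stages 8 and 9. The SD of the log2 difference in this set was 0.724 between stages 0 and 4, 0.322 between stages 4 and 8, and 0.203 between stages 8 and 9. In components with a mean under 2 the corresponding SDs were 0.665, 0.499 and 0.486. The SD between stages 8 and 9 was smaller in the set at 20 or more than under 2, while that between stages 0 and 4 was no smaller. Between these limits the SD of stages 0 and 4 was 0.778 at 2 to 5 and 0.751 at 5 to 20. It was 0.681 at 20 to 100, 1.11 at 100 to 1000 and 0.776 at 1000 or more, so it followed no steady trend.

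Pairs that share no library gave weakly correlated changes, and the shares common to their 2-fold lists lay above the background shares. Of the 372 components at least 2-fold lower from stage 4 to stage 8, 45 were also lower from stage 0 to stage 9. That is 12.1% of the 372, where the share among all kept components is 6.39%, and 4.34% of the 1037 lower from stage 0 to stage 9, where it is 2.29%. Of the 235 higher ones, 36 were also higher from stage 0 to stage 9. That is 15.3% of the 235, against 7.09% of all kept components, and 3.13% of the 1150, against 1.45%. The larger part of each list was thus not shared.

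The median change from stage 0 to stage 9 was 0.27 (log2) among the 372 lower components, opposite in sign to their change from stage 4, and 0.25 among the 235 higher ones. At a mean scaled level of 20 or more the lists were short. There, 2 of 13 lower components were also lower from stage 0 to stage 9 (15.4%, against 3.79% of the 1925), and 6 of 10 higher ones were also higher, where the share among the 1925 is 5.92%, with a median second change of 1.24. For the crossed pairs, stage 4 to 9 and stage 0 to 8, 3 of 13 lower components were shared at that level (23.1%, against 4.16%). Of the higher ones 1 of 2 was shared, where the share among the 1925 is 5.97%. Components changing in opposite directions in the 2 pairs were not counted, and no test of these overlaps was made.

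Across the 16225 components the changes from stage 4 to 8 and from stage 0 to 9 correlated at r = 0.057 (Spearman's rho 0.091). For the crossed pairs r was 0.027 (rho 0.061). At a mean scaled level of 20 or more, r was 0.16 (rho 0.015), and 0.052 (rho -0.039) for the crossed pairs. These values describe 4 libraries, the components are not independent of each other, and no p is given.

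**Figure D2:**
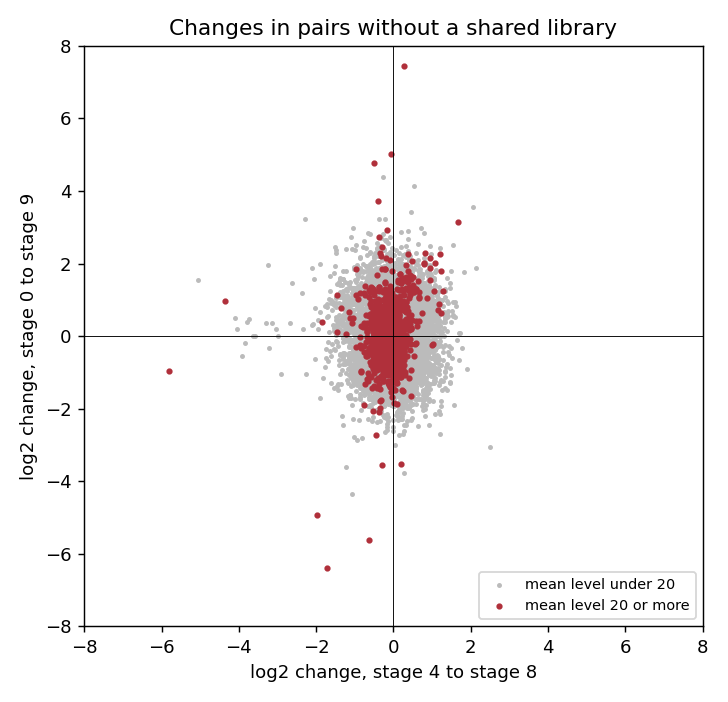
Each point is 1 of 16225 kept components, with its log2 change from stage 4 to stage 8 on the horizontal axis and from stage 0 to stage 9 on the vertical axis, in red where the mean scaled level is 20 or more. The cloud is taller than wide and shows little slope (r = 0.057).

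The components in which stage 0 stood apart were followed through the 20 later libraries, which entered their choice only through the scaling. In 54 of the 16225 kept components stage 0 was at least 4-fold below each of stages 4, 8 and 9. Their median scaled levels were 0.584, 12.1, 9.78 and 11.4 in stage order. Their 6 lowest later medians, 1.30 to 2.74, were those of stages 13, 16, 19, 24, 29 and 36, and the other 14 lay between 8.63 and 15.6. The low stages thus alternate with stages at which the same components stood high.

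In 27 of the 16225 kept components stage 0 was at least 4-fold above each of the 3. Their medians were 26.3, 2.20, 2.62 and 2.59 in stage order. The same 6 later libraries had their highest medians, 8.25 to 12.9, against 2.73 to 7.72 in the other 14. Both sets therefore set the same 6 later libraries on the side of stage 0.

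The components that separated cleavage from blastula carried this pattern too. For the 190 that were 2-fold higher at blastula, those 6 libraries had the lowest later medians, 0.860 to 1.43, against 1.84 to 2.88 in the other 14. For the 171 that were 2-fold lower they had the highest, 2.20 to 4.27, against 1.48 to 2.08. The median of all 16225 kept components ordered the libraries differently, with the 6 highest, 3.18 to 3.38, at stages 10, 12, 12.5, 13, 13.5 and 35. The labels record no difference in handling between stage 0, the 6 libraries and the rest. The part of this alternation in the difference between cleavage and blastula was not tested, and the stage of the first library and its place in the alternation cannot be told apart.

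**Figure D3:**
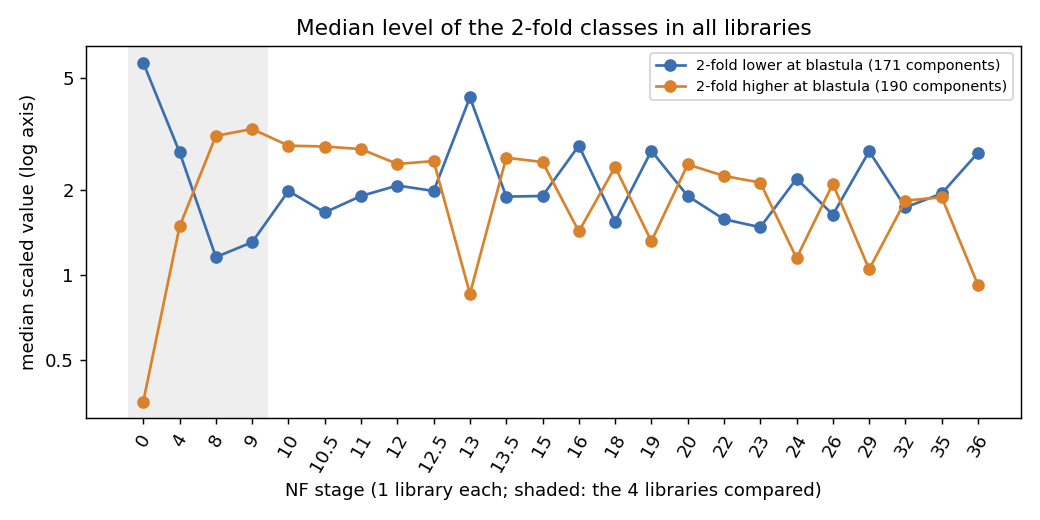
Median scaled level (log axis) at each of 24 NF stages for the 171 components 2-fold lower (blue) and the 190 components 2-fold higher (orange) at blastula, chosen on the 4 shaded libraries. At stages 13, 16, 19, 24, 29 and 36 the blue medians are 2.20 to 4.27 and the orange ones 0.860 to 1.43, while at the other later stages blue lies at 1.48 to 2.08 and orange at 1.84 to 2.88.

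The 2 components with the most negative difference of blastula from cleavage were comp239265_c0 and comp250017_c0. They were chosen among 2231 components (of 16225 kept) whose sides did not overlap and which reached 5 in both cleavage libraries. The number reaching 5 there with or without overlap is not given, so the 2231 are not read as change. comp239265_c0 had deposited values of 1133, 72.6, 23.3 and 12.9 at stages 0, 4, 8 and 9. Its sides did not overlap, and the widest step lay between stages 0 and 4. The log2 difference was -4.06 (SE 1.24, limma adjusted p = 0.773), and -2.10 without stage 0. The named components were chosen on stages 4, 8 and 9 too, so no p without stage 0 is read for any of them.

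comp250017_c0 stood at 1815, 114, 30.6 and 62.1 in the same order. Its sides did not overlap, which the choice requires, and stage 9 lay above stage 8. The log2 difference was -3.46 (SE 1.27, limma adjusted p = 0.773), and -1.48 without stage 0.

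Both components varied widely in the 20 later libraries, with isolated high values. comp239265_c0 had its lowest later value, 24.8, at stage 22, near its blastula level, and its highest, 896, at stage 35, with 247 and 351 at stages 12 and 15. For comp250017_c0 the lowest was 41.6 (stage 13) and the highest 1134 (stage 35), with 217, 461 and 61.4 at stages 12, 15 and 20. Over the 20 later libraries their log2 levels correlated at r = 0.76. With the next 2 components in the same order, r ran from 0.73 to 0.88 over the 6 pairs among the 4. The third in that order stood at 3061, 131, 91.5 and 64.6 at stages 0, 4, 8 and 9, and at 4906 at stage 35. These components share their libraries and the scaling, and no p is given for the correlations.

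The 2 components with the most positive difference were comp257465_c1 and comp261654_c0. They were chosen among 741 components (of 16225 kept) whose sides did not overlap and which reached 5 in both blastula libraries. The 741 are not read as change either. comp257465_c1 had deposited values of 1.15, 299, 396 and 420 at stages 0, 4, 8 and 9. Stage 0 was far below the other 3, which lay close together. The log2 difference was 3.86 (SE 2.19, limma adjusted p = 0.773), and 0.33 without stage 0. It stood at 7.99 to 16.7 at stages 13, 16, 19, 24, 29 and 36 and at 203 to 661 in the other 14 later libraries.

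comp261654_c0 was listed at 0 at stage 0 and stood at 1.75, 11.8 and 13.1 at stages 4, 8 and 9. Both blastula libraries lay above both cleavage ones, which the choice requires. The log2 difference was 2.80 (SE 0.49, limma adjusted p = 0.773), and 2.13 without stage 0. It stayed near its blastula level through gastrulation, with 22.7, 12.6, 14.1 and 8.84 at stages 10, 10.5, 11 and 12, and was at 16.1 at stage 13. Later values ran up to 108, 231 and 405 at stages 15, 32 and 35, with 33.3 at stage 29 between them.

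**Figure D4:**
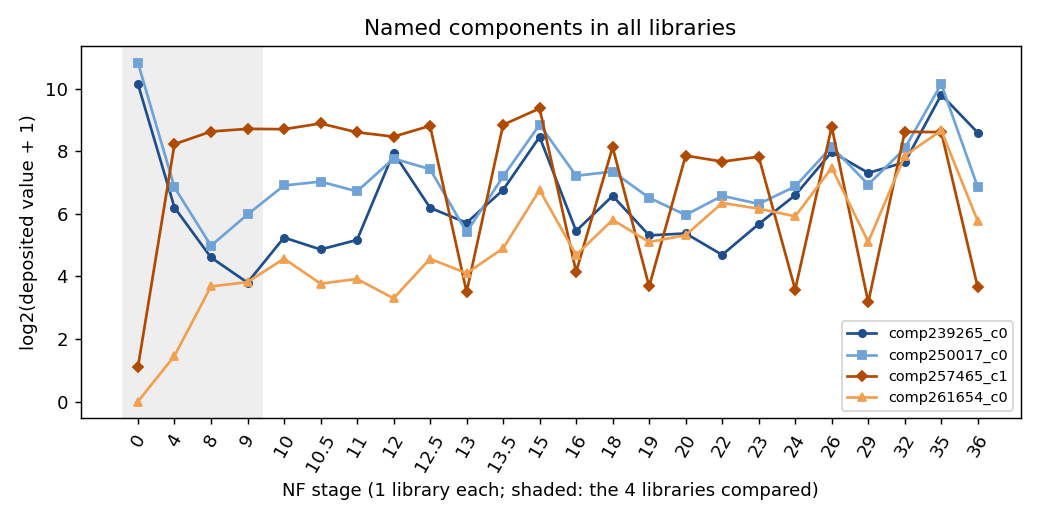
log2(deposited value + 1) of the 4 named components at each of 24 NF stages, 1 library a stage, with the 4 compared libraries shaded. comp239265_c0 and comp250017_c0 are high at stage 0, lower at stages 8 and 9 and high again at stage 35, and comp257465_c1 stands at 7.99 to 16.7 at 6 interleaved later stages.

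Leaving out stage 0 changed what was called, with the spread then taken from stages 8 and 9 only. Such calls cannot tell a change by stage from the distance of 1 library. With stage 4 alone against stages 8 and 9, limma called 18 of 16225 components (0.111%), all 18 lower at blastula, where stage 4 is assumed to vary as the blastula libraries do. The log2 difference of the 18 had a median of -3.26 and ran from -5.87 to -1.02. With stages 10, 10.5 and 11 added to the estimate of spread, 17 were called, again all lower, and 14 of them were among the 18.

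The 18 were lower at stage 0 than at stage 4, with scaled levels of 0 to 116 against 14.4 to 319. The stage 0 library entered their choice only through the filter and the scaling. Their median scaled levels were 1.81, 44.1, 2.24 and 2.95 at stages 0, 4, 8 and 9, and 2.13, 1.54 and 2.11 at stages 10, 10.5 and 11. The choice already set stage 4 above stages 8 and 9 and favours a high stage 4 value against the rest. Stage 4 was the highest of these 7 libraries in all 18. Stage 0 lay below both blastula libraries in 12 of them and above both in 3. Later the 18 were abundant, with medians of 6.87, 39.0, 143 and 202 at stages 12, 12.5, 15 and 22. The mean over the tailbud libraries, stages 22 to 36, was above the stage 4 level in 13 of 18.

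**Figure D5:**
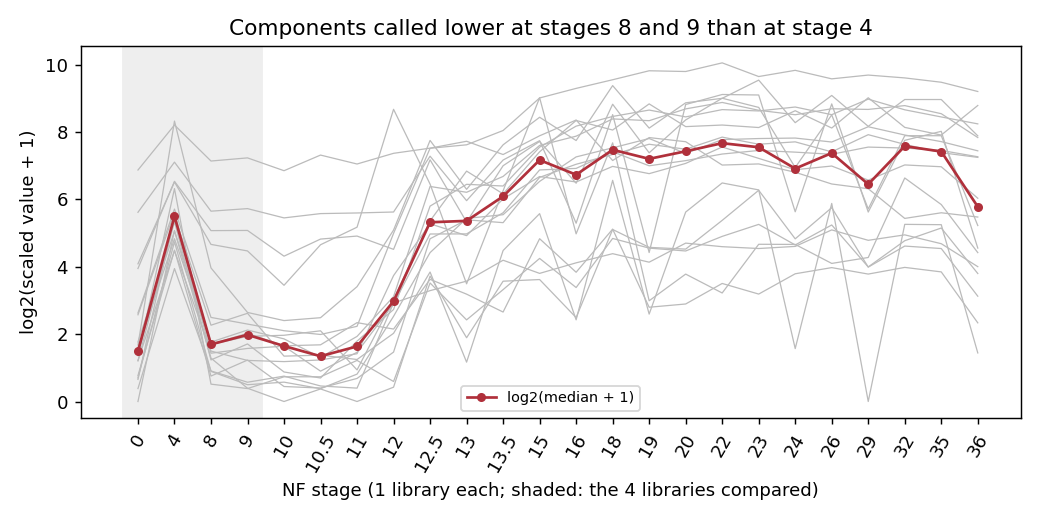
log2(scaled value + 1) at each of 24 NF stages for the 18 components called lower at stages 8 and 9 than at stage 4 when stage 0 was left out (grey, 1 line each) and for their median (red). The median scaled level is 44.1 at stage 4, between 1.54 and 2.95 at stages 0 and 8 to 11, and 39.0 at stage 12.5.

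By size alone and without overlap, 216 components were at least 2-fold lower in the blastula mean than at stage 4 (1.33%) and 114 higher (0.703%). At least 4-fold, 23 were lower (0.142%) and 2 higher (0.0123%). No overlap is easier to meet with 1 library on a side, so these counts are not on a par with those from all 4 libraries. The 216 had median scaled levels of 1.45, 5.12, 1.39 and 1.51 at stages 0, 4, 8 and 9, and of 4.26 at stage 12.5. The median at stage 0 thus lay near that of blastula, but their summed share did not. The 216 held 0.965%, 0.870%, 0.239% and 0.252% of the summed value in stage order, with stage 0 above stage 4. The 114 had medians of 1.38, 0.493, 2.62 and 2.40, with stage 0 between stage 4 and blastula.

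Some other components that were abundant late reached a deposited value of 1 or more at stage 4. Among 311 components with a tailbud mean of 20 or more and a scaled level under 1 at stages 0, 8, 9, 10, 10.5 and 11, 54 had a deposited value of 1 or more at stage 4. At stage 12 the number was 53 and at stage 12.5 it was 112. For 1722 components with a tailbud mean of 5 to 20, chosen in the same way, the numbers were 195, 153 and 528. A value above 0 was held by 242 of the 311 at stage 4 and 245 at stage 9, and by 1275 and 916 of the 1722. The choice holds the other early libraries low and leaves stage 4 free, so these numbers do not compare stage 4 with them. The share among components not abundant late was not counted. The part of RNA typical of later stages in the 18 calls was not tested.

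Leaving out stage 4 instead gave many calls, again with the spread of stages 8 and 9 only. The SD of the log2 difference over all kept components was 0.403 between stages 8 and 9. Between stages 0 and 4 it was 0.727. These calls therefore cannot tell a change by stage from the distance of the stage 0 library. With stage 0 alone against stages 8 and 9, limma called 1769 components (10.9%), of which 991 were lower and 778 higher at blastula, with stage 0 assumed to vary as the blastula libraries do. The lower ones had a median log2 difference of -1.08 and the higher ones of 1.36. By size, again under the easier rule with 1 library on a side, 939 components were at least 2-fold lower (5.79%) and 1124 higher (6.93%). At least 4-fold, 63 were lower (0.388%) and 100 higher (0.616%).

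The stage 4 library, which entered the choice by size only through the filter and the scaling, lay close to blastula in both sets. The 939 had median scaled levels of 7.38, 2.58, 2.21 and 2.27 at stages 0, 4, 8 and 9. The 1124 had 0.479, 2.76, 3.06 and 2.94. In the 6 alternating libraries the medians of the 1124 were 1.20 to 1.54, against 2.53 to 3.01 in the other 14 later ones. Those of the 939 were 3.13 to 5.28 against 2.02 to 3.25, so the ranges overlapped there.

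The most abundant components held very different shares of the libraries, without a call. The 14 components with a mean scaled level of 1000 or more had a median log2 difference of 0.59, against -0.05 over all kept components. The first 2 together held 41.6%, 32.2%, 27.5% and 34.7% of the summed value at stages 0, 4, 8 and 9. The other 12 together held 9.21%, 19.2%, 27.8% and 19.6%. Stage 0 was the lowest of the 4 libraries in all 12, and stage 8 the highest in 11. The third most abundant component had deposited values of 15264, 32936, 44925 and 30892, and its sides overlapped, since stage 4 lay between the blastula libraries.

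Among the 14, 6 were higher at blastula without overlap and 1 was lower. Over all kept components these shares were 17.4% and 22.7%. The 14 are not independent of each other, and the count was not tested. The smallest limma adjusted p among them was 0.773. The blastula libraries themselves were apart, with 11 of the 12 lower at stage 9 than at stage 8. The share of the 12 was 20.3%, 22.9%, 13.3% and 12.0% at stages 10, 10.5, 11 and 12, so the high share did not outlast early gastrulation. Because the values are relative, what these components take is missing from all others, and libraries were scaled by a median of ratios to lessen that dependence.

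By level, the 130 components with a mean between 100 and 1000 had a median log2 difference of 0.02. The 1781 between 20 and 100 had -0.14, as did the 4469 between 5 and 20. The 3935 between 2 and 5 had -0.06, and the 5896 under 2 had 0.09. The lowest level includes components that passed the filter through a single side. These medians are descriptions and were not tested.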

How the data were processed

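Ribosomal-RNA-depleted total RNA of whole embryos was sequenced at 24 stages, 1 library each. CASAVA 1.8.2, Trimmomatic, Bowtie and RSEM are named, without roles, in the submitters' processing notes. Values deposited by the authors are a signal (an abundance with decimals) for each assembled component. Their exact unit, the assembler and the read depth are not given in the sources used here, so no count test was run and no counting intervals are given. 0 columns were unmapped.

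Libraries were scaled by the median of ratios over 15471 components above 0 in all 24 libraries. limma 3.58.1 (R 4.3.3), with trended and robust variances, was fitted to log2(scaled value + 1) of the kept components in the 4 libraries, with Benjamini-Hochberg adjustment. Its p-values set the difference of the side means against the spread between stages of a side, moderated across components. The fit was tested on simulated data. Components were named by rule: sides not overlapping, a deposited value of 5 or more in both libraries of the higher side, and the 2 largest differences in each direction. The comparison, sets and rules were chosen with earlier results of these data known. Alternatives covered scaling, pseudocount, filter, source of spread and each library left out. No gene list was used, since components carry no gene names.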

Additional observations from a re-analysis of the deposited data

How the results depend on the processing

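The count of 0 limma calls was the same in the 9 alternatives of scaling, pseudocount and filter and with stages 10 to 11 as a further group. It ranged from 0 to 1769 with a library left out (18 without stage 0, 1769 without stage 4, 0 without stage 8 or 9), and was 17 without stage 0 with stages 10 to 11 added, an alternative chosen after seeing the data. The 2-fold lower count (171) was 328 with a pseudocount of 0.5, 18 with 5, 85 at 1 or more in all 4 columns, 49 at 5 or more in 2 columns, and 216 to 939 with a library left out. The 2-fold higher count (190) was 445, 23, 64 and 75 in the same order, 353 with values as deposited, and 114 to 1124 with a library left out. The 4-fold lower count (7) was 19 and 4 with the pseudocounts of 0.5 and 5, and 10 to 63 with a library left out. The 4-fold higher count (6) was 16 and 1 with these pseudocounts, 2 at 1 or more in all 4 columns, and 2 to 100 with a library left out. Leaving out stage 0 gave 23 and 2 at 4-fold, and leaving out stage 4 gave 63 and 100. With 1 library on a side, no overlap is easier to meet and that side's mean is a single value. The counts by size with a library left out are thus not on a par with those from all 4. The median log2 difference of -0.051 was 0.031 with values as deposited, -0.017 with ratios over the 4 libraries, -0.034 with the trimmed mean, -0.029 with a pseudocount of 5, -0.099 at 1 or more in all 4 columns, -0.121 at 5 or more in 2 columns, and -0.057 to -0.035 with a library left out. The 4 named components kept their direction in the scaling and pseudocount alternatives. They kept it with each library left out too, which the choice of sides not overlapping fixes in advance. Without stage 4 their log2 differences were -6.02, -5.43, 7.38 and 3.48, in the order named above. These rest on stage 0, a library that entered their choice, so no p is read from them. Pseudocounts and filters change what a fold means for low components or how many are kept, and the cause of the other shifts was not tested. Values near 1 are the least certain, since the read depth behind them is not given. A library left alone on its side is assumed to vary like the others. No paired analysis was possible because replicate numbers are absent from the labels and every stage was sequenced once.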
